A study of Homo sapiens with 12 samples.

Results

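This account compares cells given ARID1A without IDR1b with cells given whole ARID1A, where neither carried EWS-FLI1. The 4 libraries were chosen by their labels, out of 12 in the series: 2 of ARID1A-knockout 293T cells given ARID1A ΔIDR1b and 2 of the same knockout cells given wild-type (WT) ARID1A. All 4 also received an empty vector in place of EWS-FLI1, the fusion protein of Ewing sarcoma, and the labels give 48 h between transfection and harvest. PolyA RNA was sequenced, and 20377 genes had enough counts to be tested. The other 8 libraries were 2 of knockout cells with empty vectors only and 2 with EWS-FLI1 for each of the 3 ARID1A states (none, WT, ΔIDR1b). The labels do not say how ARID1A was introduced, whether the knockout line was a single clone, or whether the 2 repeats of a group were separate cultures, so the p-values below measure the spread between these libraries, which may be technical. The series was designed around EWS-FLI1, and this comparison shows how the transcriptomes of the ΔIDR1b and WT libraries differed without it.

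ARID1A is a large subunit of the canonical BAF form of the SWI/SNF complex, which uses ATP to slide or evict nucleosomes at enhancers and promoters. It binds DNA through its ARID domain and docks onto the complex core through its C-terminal part. Long stretches of its N-terminal region have no fixed fold; such intrinsically disordered regions (IDRs) are known for weak, multivalent contacts that can draw proteins into condensates. ΔIDR1b lacks 1 such segment.

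ARID1A itself was counted first. In CPM (counts per 1000000 of the library size, scaled with TMM, edgeR's default) it stood at 2038 and 2074 in the WT libraries and at 2695 and 2878 in the ΔIDR1b libraries, against 165 and 147 in the knockout cells. Both ARID1A groups were thus far above the knockout, and the ΔIDR1b libraries were above the WT libraries by a log2 fold change of 0.44 ± 0.09 (standard error, SE; adjusted p = 6.91e-04). The counts join the introduced and the endogenous gene, and the ΔIDR1b sequence is shorter. The difference in ARID1A dose stood beside every result below, and its part in them was not tested. ARID1B, the paralog that can take ARID1A's place, had 89.9 and 109 CPM in WT and 97.7 and 96.2 in ΔIDR1b, and ARID2, the counterpart in the PBAF complex, 44 and 53.6 and 44.1 and 57.5. Neither passed the test (adjusted p = 0.848 and 0.796). FLI1 was at 0.0744 and 0 in the WT libraries and 0.146 and 0.0715 CPM in the ΔIDR1b libraries, under the 0.214 to 0.224 CPM that a count of 3 is worth in these libraries. EWSR1 was lower in ΔIDR1b, at 392 and 386 CPM against 495 and 559 (log2 fold change -0.44 ± 0.09, adjusted p = 3.55e-04).

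The libraries held 14445379 and 13946071 counts (WT) and 12893088 and 13172129 (ΔIDR1b). Genes with at least 1 count numbered 26544 and 27298 in WT and 28449 and 28830 in ΔIDR1b. The 100 most counted genes took 18.8% and 17.8% of the counts in WT but 15.3% and 15.5% in ΔIDR1b. Among embryonic kidney markers, SIX2, SALL1, GATA3, EYA1, PAX2, WT1 and LHX1 were counted in all 4 libraries, while PAX8, CDH6 and OSR1 were near or at 0 (10 or fewer counts over a group, 16 for OSR1 in ΔIDR1b). Of 6 genes behind the known neuronal character of 293 cells, NEFM was at or near 0, and 4 of the 5 tested were lower in ΔIDR1b (NEFL, ENO2, UCHL1 and STMN1, by -0.47, -0.33, -0.33 and -0.36 on the log2 scale). With library totals in place of the TMM scaling none of these falls was called. INA went the other way (0.32) and was not called. The 6 summed to between 931 and 984 CPM in WT and between 756 and 773 in ΔIDR1b. Of a wider list of 35 neuronal and synaptic genes, 0 were called higher and 5 (14.3%) lower, where 13.4% of all genes were called lower. The median of that list was 0.17, with 21 members above 0 and 14 below. Library totals gave 10 rises and 2 falls, and a fit without GC and length trends 2 rises and 10 falls. Markers of blood, endothelial, hepatocyte and fibroblast cells summed to between 6.18 and 7.92 CPM in WT and between 7.90 and 8.86 in ΔIDR1b over 12 genes, of which CD3E was at 0 throughout.

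The ΔIDR1b cells differed from WT cells at a large part of the expressed genome. At a Benjamini-Hochberg adjusted p under 0.05 in edgeR's quasi-likelihood test, 4995 of 20377 genes were called, or 24.5%. Of these 2267 (11.1%) were higher and 2728 (13.4%) lower in ΔIDR1b. Most differences were moderate: the median called rise was 1.70-fold and the median called fall 1.47-fold, and 805 rises and 588 falls reached a log2 fold change of 1. Of the called genes, 4988 had no overlap between the 2 WT and the 2 ΔIDR1b libraries; over all genes tested, 13056 (64.1%) had none. Leaving out WT 1, WT 2, ΔIDR1b 1 or ΔIDR1b 2 in turn (the numbers are the repeats) left 2754, 3436, 2947 and 2821 calls. Along the leading principal component of the 6 empty-vector libraries (49.1% of the variance) the knockout lay at -51.2 and -55.7, WT at -10.2 and -14.4 and ΔIDR1b at 66.9 and 64.6. The next component (20.5%) set WT (-52.0 and -35.7) apart from both the knockout (24.1 and 32.9) and ΔIDR1b (16.8 and 13.9).

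Falls and rises sat at different levels of expression. Among 2440 genes with a mean of at least 100 CPM, 858 were lower and 183 higher in ΔIDR1b. Among 9708 genes under 10 CPM, 853 were higher and 580 lower. In between, 1231 were higher and 1290 lower of 8229. The scaling sets the zero line of such a comparison: with TMM the median gene moved by 0.01 on the log2 scale, with upper-quartile scaling by 0.08 (2791 higher, 2184 lower) and with library totals alone by 0.18 (3879 higher, 1488 lower). Directions below are on the TMM scale. The list counts below stand beside 11.1% of all genes called higher and 13.4% called lower. Lists with a median level of at least 100 CPM stand beside the high-level genes above as well. These are the heat-shock list (102 CPM), other chromatin remodellers (112), S-phase genes (134), mitosis genes (141) and the SR and hnRNP list (185). They also include translation factors (207), tRNA synthetases (219), glycolysis and hypoxia (228), cytosolic ribosomal proteins (648) and the mitochondrial genome (651). Where library totals, the fit without GC and length trends (the GC fit) or the fit with a repeat block move a list's count by over 1.5 times, that count is given beside it, except where 0 rises became 1 or 2.

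The largest falls included GLIPR1, HSPA5, CCN1, EIF4A1 and the histone gene H2BC21. They were taken by a rule of at least 5 CPM on average, a gene symbol and no overlap between the groups, 12 genes in each direction. GLIPR1, a secreted member of the CAP protein family (cysteine-rich secretory protein relatives), had 17.1 and 22.9 CPM in WT and 2.19 and 2.50 in ΔIDR1b, a log2 fold change of -3.09 ± 0.27 (adjusted p = 6.02e-10). HSPA5 encodes BiP, the main chaperone of the endoplasmic reticulum (ER). It was one of the most abundant mRNAs of WT cells at 3092 and 2842 CPM and fell to 622 and 722 in ΔIDR1b (-2.14 ± 0.10, adjusted p = 3.90e-17). The knockout cells had 2089 and 2204 CPM of it, so the ΔIDR1b libraries lay below the cells without ARID1A as well. The matricellular genes CCN1 and CCN2, known targets of YAP and TEAD, showed a like order. CCN1 had 607 and 534 CPM in WT, 115 and 137 in ΔIDR1b and 354 and 341 in the knockout (-2.18 ± 0.11, adjusted p = 3.86e-16), and CCN2 had 18.2 and 14.5, 3.95 and 4.15 and 5.65 and 9.42 (-2.01 ± 0.25, adjusted p = 3.17e-07). For both genes the ΔIDR1b values were the lowest of the 3 states.

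A second pattern was a stepwise order, highest in the knockout, intermediate in WT and lowest in ΔIDR1b. ANKRD37, a small ankyrin-repeat gene induced by hypoxia, had 158 and 163 CPM in the knockout, 54.8 and 66.6 in WT and 11.4 and 12.4 in ΔIDR1b (-2.35 ± 0.15 for ΔIDR1b against WT, adjusted p = 3.27e-13). EIF4A1, the RNA helicase of cap-dependent translation initiation, had 197 and 203, 69.6 and 82.2 and 14 and 16.5 (-2.31 ± 0.13, adjusted p = 4.54e-15). The histone gene H2BC21 had 113 and 120.0, 27.3 and 23.3 and 4.68 and 5.65 (-2.29 ± 0.21, adjusted p = 7.17e-10). In each of these the 3 pairs of libraries did not overlap. The same order held for GLIPR1 and 5 others: SNORA66, a small nucleolar RNA (-2.45), the proteasome subunit gene PSMA2 (-2.16), the nuclear long noncoding RNA MALAT1 (-2.06), DDX47, an RNA helicase of ribosome biogenesis (-2.02), and PRC1-AS1 (-1.94), as log2 fold changes of ΔIDR1b against WT. Both knockout libraries thus lay above both WT libraries in 9 of the 12 genes.

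Of these 12 genes, 7 share more than 20% of their exon bases with another gene name, against 10.1% of the 10890 genes with a symbol and at least 5 CPM. EIF4A1 shares 47.4% with an overlapping gene named only by its identifier, ANKRD37 40.3% with UFSP2, MALAT1 88.5% with its antisense partner, and PSMA2 29.7%. GLIPR1, the largest fall, DDX47 and PRC1-AS1 are the rest of the 7. Fragments overlapping 2 gene names were not counted, so the values of such genes come from the rest of their exons, and with no strand option a gene and its antisense partner cannot be told apart. HSPA5, CCN1, H2BC21 and SNORA66 share none, and CCN2 8.34%. With every gene that shares an exon base left out, 2526 of 10541 genes were called, 1174 of them higher.

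The largest rises were mostly of genes little expressed in WT cells, several of which consist of 1 exon block. SLC16A13, a monocarboxylate transporter gene, had 1.71 and 0.598 CPM in WT and 13 and 10.7 in ΔIDR1b (3.35 ± 0.48, adjusted p = 4.28e-06). ADM2, a peptide hormone gene of the calcitonin family, went from 1.04 and 1.64 to 9.07 and 8.65 CPM (2.71 ± 0.37, adjusted p = 2.10e-06). PPP1R10 encodes PNUTS, a nuclear regulator of protein phosphatase 1 that acts in transcription termination. It had 8.48 and 6.72 CPM in WT, 38.6 and 37.5 in ΔIDR1b and 10.6 and 12 in the knockout (2.32 ± 0.17, adjusted p = 1.08e-11). The knockout lay nearer to WT than to ΔIDR1b for this gene, and so it did for HPS6, a subunit of a complex that forms lysosome-related organelles, with 5.50 and 5.38 CPM in the knockout, 6.32 and 3.14 in WT and 26.4 and 24.2 in ΔIDR1b (2.41 ± 0.26, adjusted p = 2.65e-08). EPPK1, a large plakin-family gene linked to keratin filaments, rose at both steps, with 2.97 and 1.57 CPM in the knockout, 6.62 and 7.55 in WT and 29.1 and 31 in ΔIDR1b (2.08 ± 0.22, adjusted p = 1.16e-08). The other 7 were ANKRD63 (2.66), LINC01411 (2.25), the molybdenum cofactor enzyme MOCS3 (2.24), the zinc-finger genes ZNF382 (2.19), ZBTB9 (2.14) and ZFHX2 (2.00), and the Wnt pathway activator FRAT1 (1.99), as log2 fold changes.

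All 12 rises differed from the knockout too, with ΔIDR1b higher at an adjusted p under 0.05 in each, and all 12 falls were lower in ΔIDR1b than in the knockout. These comparisons share the ΔIDR1b libraries with the one against WT and are given only side by side with it. WT itself differed from the knockout in 11 of the 12 falls (8 lower in WT, 3 higher) and in 3 of the 12 rises (2 lower, 1 higher).

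**Figure D1:**
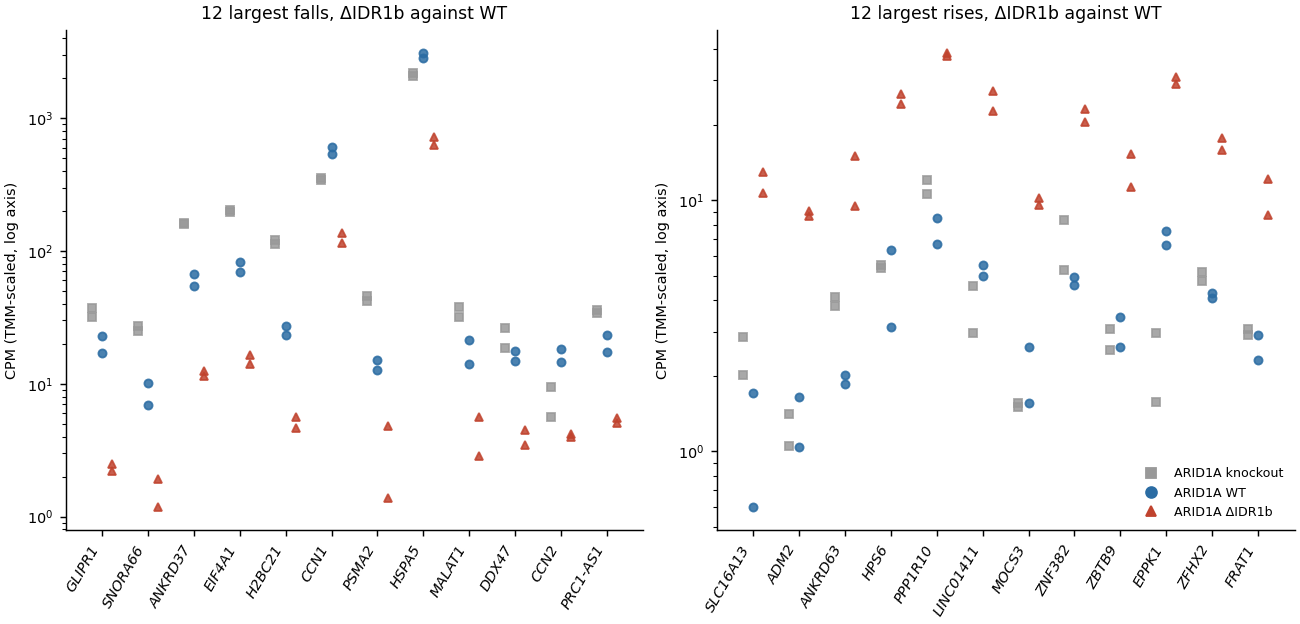
CPM on a log axis for the 12 largest falls (left) and the 12 largest rises (right), with 1 symbol per library: squares for the ARID1A knockout, circles for WT and triangles for ΔIDR1b, all without EWS-FLI1. The triangles lie apart from the circles for every gene, which the choice of genes requires; in 9 of the 12 falls both squares lie above both circles, as for EIF4A1 and ANKRD37.

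Counted by the size of the difference in CPM, the 4 leading falls were of EEF1A1, HSPA5, RPS2 and EEF2. EEF1A1, the translation elongation factor that delivers tRNA to the ribosome, had 10527 and 9874 CPM in WT and 7165 and 7486 in ΔIDR1b (-0.48 ± 0.08, adjusted p = 3.94e-05). EEF2, the translocation factor, went from 7966 and 6984 to 5739 and 5611 CPM (-0.40 ± 0.09, adjusted p = 9.92e-04), and RPS2, a protein of the small ribosomal subunit, from 6644 and 5307 to 4069.8 and 3791 (-0.60 ± 0.10, adjusted p = 1.97e-05). HSPA5 is described above. EEF1A1 and RPS2 have many processed copies in the genome, and fragments that mapped to several places were not counted. Among the rises that added most CPM were 3 of long mRNAs. HUWE1, a giant ubiquitin ligase, had 886 and 978 CPM in WT and 1088 and 1229 in ΔIDR1b (0.31 ± 0.09, adjusted p = 0.0124). The proliferation marker MKI67 had 252 and 300.1 and 461 and 507 (0.81 ± 0.10, adjusted p = 2.62e-07). CELSR2, an adhesion receptor of planar cell polarity, had 271 and 267 and 421 and 439 (0.68 ± 0.10, adjusted p = 1.12e-05).

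Ribosomal protein genes were lower in ΔIDR1b almost as a class. Of 83 tested genes for cytosolic ribosomal proteins, 79 fell and 0 rose, where 13.4% of all genes were called lower, and the median of the list was -0.66. Leaving out any 1 of the 4 libraries gave 76 to 78 falls. RPL17 fell from 48.8 and 48.6 to 17.5 and 21.2 CPM (-1.33), RPS10 from 19.9 and 20.6 to 7.02 and 9.36 (-1.30), and RPS29 from 266 and 223 to 123 and 93.3 (-1.18). The groups did not overlap for these 3, although RPL17 and RPS10 share 35.5% and 40.3% of their exon bases with read-through or neighbouring genes. The genes together held 8.31% and 7.33% of all counts in WT, 5.96% and 5.35% in ΔIDR1b, and 8.56% and 7.87% in the knockout. With library totals in place of TMM, 78 still fell and the median was -0.49. Of 50 translation initiation and elongation factors, 28 fell and 1, EIF5, rose, with a median of -0.35 (17 falls and 4 rises with library totals, 2 rises with the repeat block, and 0 rises without WT 2 or ΔIDR1b 1); beside EIF4A1, the falls included EIF2A (-0.62), EIF2D (-0.57) and EIF5A2 (-0.60). Among 33 ribosome biogenesis genes 12 fell, among them NPM1, the nucleolar chaperone (1254 and 1176 to 808 and 779.8 CPM, -0.61), and GNL3 (-0.66), and 1, the RNA polymerase I subunit gene POLR1A, rose (0.72 ± 0.11); with library totals 5 rose. Of 20 aminoacyl-tRNA synthetase genes, which load tRNAs, 4 fell and 1 rose, with a median of -0.09. Library totals gave 0 falls, 3 rises and a median of 0.08, the GC fit 9 falls, and 1 fall was left without WT 1 or ΔIDR1b 1.

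Noncoding genes that host small nucleolar RNAs, many of which carry the same 5′ terminal pyrimidine start as ribosomal protein genes, were also lower. Of 27 tested, 18 fell and 0 rose, with a median of -0.90. SNHG1 had 710.2 and 799.7 CPM in the knockout, 476 and 457 in WT and 164 and 167 in ΔIDR1b (-1.50 ± 0.11, adjusted p = 4.17e-12), and SNHG15 had 276 and 289, 143 and 128 and 51.5 and 52.3 (-1.38 ± 0.11, adjusted p = 2.27e-11). Both thus stepped down from the knockout through WT to ΔIDR1b without overlap. SNHG10 (-1.12) and SNHG14 (-1.89) fell too. Genes annotated as snoRNAs themselves, which polyA selection should mostly remove, were called lower in 33 of 72 and higher in 0, with a median of -1.51 (-0.58 in the GC fit) and a median level of 0.72 CPM.

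Nuclear genes of the mitochondrial respiratory chain fell in 56 of 80 and rose in 0, with a median of -0.47; without WT 1, WT 2, ΔIDR1b 1 or ΔIDR1b 2 the count of falls was 32, 55, 48 and 34. COX7B, a subunit of complex IV, went from 48.1 and 35.6 to 20.4 and 19.5 CPM (-1.07 ± 0.16, adjusted p = 1.07e-05). NDUFB5 (-1.03) and NDUFV2 (-0.98) of complex I fell too, with 28.4% of NDUFV2 exon bases shared with another gene. Genes for mitochondrial ribosomal proteins fell in 36 of 77 and rose in 0 (median -0.33; 10, 26, 22 and 11 falls without those libraries, and 15 with library totals), such as MRPS22 (-0.75) and MRPL38 (-0.93). Of the 13 genes of the mitochondrial genome 1, MT-CYB, rose (601 and 553 to 729 and 723 CPM, 0.33 ± 0.10), 0 fell, and the median was 0.08. These counts depended on the setting: 10 rose in the GC fit (median 0.39), 4 with library totals, 3 with the repeat block (2 fell) and 2 without WT 1. Without WT 2, ΔIDR1b 1 or ΔIDR1b 2 none rose, and 1 fell without WT 2. Proteasome subunit genes fell in 17 of 36 and rose in 0 (median -0.25; 8, 15, 10 and 8 falls, and 7 with library totals), with PSMA6 (-1.29) and PSMC6 (-0.92) beside PSMA2. Splicing factors of the SR and hnRNP families fell in 18 of 43 and rose in 0 (median -0.24), led by HNRNPH1, which had 1019 and 1172 CPM in WT and 509 and 517 in ΔIDR1b (-1.10 ± 0.10, adjusted p = 1.45e-09). The median level of that list was 185 CPM, and of all 2440 genes of at least 100 CPM 858 fell.

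Glycolytic enzymes and genes induced by hypoxia fell in 21 of 30 and rose in 0 (median -0.38; 18, 17, 15 and 13 falls without WT 1, WT 2, ΔIDR1b 1 and ΔIDR1b 2, and 12 with library totals). Beside ANKRD37, the peptide hormone gene ADM had 376 and 354 CPM in the knockout, 130.3 and 154 in WT and 64 and 58.7 in ΔIDR1b (-1.21 ± 0.15, adjusted p = 4.09e-07). The glucose transporter SLC2A3 had 354 and 376, 201 and 217 and 96.9 and 106 (-1.04 ± 0.10, adjusted p = 1.64e-09), and the glycolytic enzyme ALDOA 225 and 237, 68.7 and 76.9 and 37.7 and 28.7 (-1.13 ± 0.13, adjusted p = 5.65e-08). All 3 descended in the same order of states. Genes of cholesterol synthesis and uptake fell in 11 of 24 and rose in 0 (median -0.37). MSMO1, a sterol demethylase, fell from 78 and 77.6 to 30.2 and 32.7 CPM (-1.31 ± 0.16), INSIG1, which retains the sterol sensor in the ER, from 144 and 151 to 74.2 and 81.7 (-0.92 ± 0.11), and HMGCS1 from 83 and 99.1 to 49.6 and 63.5 (-0.69 ± 0.13).

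The ER chaperones and genes of the unfolded protein response fell in 13 of 22 and rose in 2 (median -0.39; 9, 15, 12 and 10 falls). HSPA5 led them. HERPUD1, a factor of ER-associated degradation, fell from 160.3 and 146 to 66 and 69.1 CPM (-1.18 ± 0.11), the co-chaperone DNAJB9 from 30.1 and 31.5 to 15.8 and 14 (-1.05 ± 0.15), and HSP90B1, the ER form of HSP90, from 1229 and 1252 to 658 and 682 (-0.89 ± 0.10). The 2 rises, SEL1L (0.50 ± 0.12) and EDEM1 (0.47 ± 0.11), belong to the degradation arm; 1 rise was left without WT 1. Of 32 heat-shock protein genes 13 fell and 3 rose (median -0.21; 7 falls with library totals, and 1 rise without ΔIDR1b 2), with falls of CHORDC1 (-1.04), BAG1 (-0.83) and HSF2 (-0.76) and rises of HSPA13 (0.51), HSPA12A (0.41) and HSPA12B (1.47). The list of ATF4 targets split, with 8 falls and 4 rises of 28 (median -0.09; 5, 8, 8 and 5 falls and 1, 2, 1 and 4 rises with a library left out, and 5 falls and a median of 0.08 with library totals): ATF3 fell from 1401 and 1378 to 567 and 632 CPM (-1.21 ± 0.09) and DDIT3, or CHOP, as well (-0.90), while SLC7A11 (0.70) and TRIB3 (0.68) rose.

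Immediate early genes, which answer growth factors and stress within minutes, fell in 12 of 23 and rose in 2 (median -0.35; 11, 13, 10 and 11 falls). FOS had 191 and 181 CPM in the knockout, 72.1 and 64.5 in WT and 17.9 and 18.1 in ΔIDR1b (-1.92 ± 0.12, adjusted p = 1.41e-13). The nuclear receptor NR4A2 had 47.1 and 42.1, 14.2 and 14.7 and 5.63 and 5.29 (-1.40 ± 0.20, adjusted p = 4.64e-06), and FOSB 19.6 and 15.1, 8.85 and 7.92 and 2.78 and 3.22 (-1.48 ± 0.27, adjusted p = 9.95e-05). NR4A3 did not show the step between knockout and WT, with 16.1 and 15 CPM in the knockout, 15 and 16.4 in WT and 5.70 and 7.01 in ΔIDR1b. The rises were of EGR1, from 21.7 and 18.5 to 27.3 and 29.2 CPM (0.49 ± 0.16), and FOSL2, from 39.6 and 43.6 to 59.9 and 61.5 (0.54 ± 0.15). With 1 library left out in turn, EGR1 passed the test only without WT 1, and FOSL2 only without WT 2 or ΔIDR1b 1. Among 19 ERK feedback genes 5 fell and 3 rose (3, 2, 3 and 2 falls and 1, 1, 2 and 0 rises without WT 1, WT 2, ΔIDR1b 1 and ΔIDR1b 2), with a median of -0.03. Library totals gave 2 falls and a median of 0.14. The phosphatase gene DUSP5 fell from 42.5 and 40.6 to 13.2 and 13.7 CPM (-1.63 ± 0.16), below the 22.2 and 18.5 of the knockout.

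Targets of TGF-beta and BMP signalling fell in 6 of 20 and rose in 1 (median -0.11, which turned to 0.06 with library totals alone). Library totals, upper-quartile scaling and the repeat block gave 3 rises each, and the GC fit 2. The falls included ID3, an inhibitor of helix-loop-helix factors, with 216 and 199 CPM in the knockout, 123 and 93.5 in WT and 55 and 49.8 in ΔIDR1b (-1.04 ± 0.12), and ID4 (-0.78 ± 0.13). The rise was of SKI, a repressor of SMAD-driven transcription (84.4 and 78.4 to 123 and 121 CPM, 0.58 ± 0.12). Targets of YAP and TEAD did not move as 1 group: CCN1, CCN2 and GADD45B (-0.94) fell, 5 of 23 rose, among them ARHGEF17 (0.89) and AJUBA (0.78), and the median was 0.13 (2, 4, 3 and 2 rises without WT 1, WT 2, ΔIDR1b 1 and ΔIDR1b 2, 9 with library totals and 8 with upper-quartile scaling). In the Notch list the receptors NOTCH3 (85.4 and 76.1 to 159.9 and 177 CPM, 1.06 ± 0.12) and NOTCH1 (80.1 and 68.4 to 114 and 116, 0.63 ± 0.12) rose, as did the target genes HES5 (0.595 and 0.299 to 2.34 and 2.93 CPM) and HES2 (1.34 and 1.79 to 6.80 and 4.79) and, named after its value was seen, NOTCH2. HES4, HEY1 and the ligand DLL3 fell (-0.96, -0.43 and -0.70), so that 5 of 23 rose and, with RFNG, 4 fell. Without ΔIDR1b 2, 1 fall was left, and without WT 1, 2 were. The median was -0.02, but 0.15 with library totals (1 fall), 0.04 with upper-quartile scaling and 0.02 in the GC fit (7 falls).

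Chromatin regulators were among the called genes. Of 28 SWI/SNF subunits, 6 fell and 2 rose, near the share over all genes, and the median was -0.14 (0.03 with library totals alone). The falls numbered 2 with library totals, 3 with upper-quartile scaling and 14 in the GC fit. SMARCE1, a subunit of BAF and PBAF, fell from 15.2 and 21.7 to 7.02 and 7.65 CPM (-1.33 ± 0.22, adjusted p = 3.02e-05). It was at 26 and 26.7 CPM in the knockout, and 18.9% of its exon bases are shared with another gene. SMARCD2 (-0.45), ACTL6A (-0.39) and BCL7B (-0.37) fell less; besides ARID1A itself, BICRAL of the GBAF complex rose (7.07 and 3.96 to 10.4 and 12 CPM, 1.02 ± 0.25). Leaving out any 1 library left 2 falls, and without WT 2, 1 rise. Of 31 Polycomb subunits, 14 fell and 2 rose (median -0.28; 9, 7, 8 and 7 falls without WT 1, WT 2, ΔIDR1b 1 and ΔIDR1b 2, 7 falls with library totals, and 1 rise without ΔIDR1b 1). PCGF1 fell from 36.2 and 34.3 to 20.8 and 22.4 CPM (-0.71 ± 0.13), EED, the PRC2 subunit that reads H3K27me3, from 59.1 and 61.5 to 39.4 and 41 (-0.58 ± 0.13), and MTF2 also (-0.60), while the chromobox genes CBX7 (0.79) and CBX6 (0.60) rose. Replication-dependent histone genes, whose mRNAs mostly lack a polyA tail, fell in 8 of 26 and rose in 0 (median -1.11); H1-2 went from 42.2 and 36.1 CPM in the knockout and 12.9 and 12.7 in WT to 5.41 and 4.29 in ΔIDR1b (-1.40 ± 0.20).

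Rises outnumbered falls among zinc-finger genes of chromosome 19, ion channels, developmental ligands and interferon-stimulated genes. The median levels of these lists were 9.39, 5.89, 4.56 and 19.7 CPM. In the middle of 5 equal groups of all genes by level (4.95 to 23.3 CPM), 19.9% were called higher and 8.91% lower. In the group below it (1.03 to 4.95 CPM) the shares were 10.1% and 7.21%. Of 205 numbered zinc-finger genes of chromosome 19, mostly KRAB repressors of transposable elements, 64 rose and 6 fell (median 0.45), where 11.1% of all genes were called higher; without WT 1, WT 2, ΔIDR1b 1 or ΔIDR1b 2 the rises numbered 32, 53, 45 and 38. The falls numbered 3 with library totals and without ΔIDR1b 2. ZNF382 led those above 5 CPM, and ZNF837 (0.893 and 0.896 to 5.26 and 3.36 CPM), ZNF221 (0.521 and 0.822 to 3.07 and 2.86) and ZNF613 (1.56 and 0.747 to 5.26 and 4.65) rose from lower levels. Of 55 genes for voltage-gated and related ion channels, 21 rose and 1, KCNG3, fell (median 0.57; 12, 12, 11 and 10 rises without those libraries). KCNG3 did not pass the test in any of these 4 fits, with upper-quartile scaling, with library totals or in DESeq2, and 3 channels fell in the GC fit. SCN4A, the skeletal-muscle sodium channel, had 2.53 and 1.42 CPM in WT and 5.85 and 7.58 in ΔIDR1b (1.76 ± 0.35), and CACNA1I, a T-type calcium channel, 3.05 and 2.32 and 8.92 and 5.50 (1.42 ± 0.32). These are low levels: SCN4A rests on 53 counts in the 2 WT libraries together and 186 in the 2 ΔIDR1b libraries, and CACNA1I on 72 and 199. Of 39 BMP, FGF and Wnt ligand genes, 12 rose and 0 fell (median 0.47; 8, 9, 6 and 10 rises), including WNT9B (1.04 and 0.299 to 3.51 and 3.22 CPM, 2.31 ± 0.54), WNT8B (1.73) and GDF6 (1.48).

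Of 29 interferon-stimulated genes 8 rose and 1 fell (median 0.26; 6 to 7 rises with 1 library left out). IFIT2, which binds viral and cellular RNA, had 36.9 and 35 CPM in the knockout, 86.4 and 79.3 in WT and 198 and 224 in ΔIDR1b (1.35 ± 0.11, adjusted p = 4.21e-11), an ascending order without overlap. IFIT5 (0.86), PARP9 (1.23) and SAMD9 (1.32) rose as well, while the ubiquitin-like ISG15 fell from 76.9 and 70.0 to 38.5 and 33.2 CPM (-1.04 ± 0.12, adjusted p = 1.95e-07). Matrix glycoproteins and proteoglycans rose in 10 of 51 and fell in 2, led in abundance by LAMA5 (136 and 139 to 244 and 246 CPM, 0.83 ± 0.11) and AGRN (101 and 93 to 167 and 163, 0.77 ± 0.12); leaving out any 1 library left 5 rises and at most 1 fall. Library totals gave 18 rises and 0 falls, upper-quartile scaling 0 falls, DESeq2 1 fall and the GC fit 5 falls. Collagen chains rose in 4 of 38 and fell in 0, close to the share of all genes, with 1 rise left without ΔIDR1b 1, 10 rises with library totals, 7 with the repeat block, and 2 rises and 2 falls in the GC fit. Kidney development factors were divided, 4 rising (SALL1, WT1, FOXC2 and WNT9B) and 4 falling (among them SIX2, FOXC1 and FOXD1) of 19; with WT 1, WT 2, ΔIDR1b 1 or ΔIDR1b 2 left out, 1, 2, 2 and 3 rose and 0, 3, 2 and 1 fell, and with library totals 0 fell.

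Among cell-cycle lists no common direction stood out. Mitosis genes fell in 10 of 42 and rose in 3 (median -0.13, or 0.04 with library totals alone; 6, 8, 7 and 6 falls without WT 1, WT 2, ΔIDR1b 1 and ΔIDR1b 2; 5 falls and 6 rises with library totals and 5 rises in the GC fit), with PRC1 (-1.54) and UBE2C (-0.56) falling and MKI67, CENPF (0.76) and KIF11 (0.28) rising. PRC1 shares 61.9% of its exon bases with other genes. S-phase and replication genes fell in 8 of 47 and rose in 3 (5, 8, 5 and 5 falls and 1, 1, 2 and 1 rises), with a median of -0.04. Library totals gave 5 falls, 9 rises and a median of 0.12, upper-quartile scaling a median of 0.02, and the GC fit 13 falls. Targets of p53 fell in 3 of 24 and rose in 2 (0, 3, 2 and 1 falls and 1 rise each), with a median of -0.07. Library totals gave 1 fall, 5 rises and a median of 0.10, upper-quartile scaling and the repeat block 4 rises each, and the GC fit 5 rises. Of 11 keratin genes 4 rose and 3 fell (3, 2, 3 and 2 rises and 1, 1, 2 and 0 falls, and 0 falls with library totals). KRT17, a stress keratin, had 0.743 and 2.84 CPM in the knockout, 373 and 324 in WT and 269 and 263 in ΔIDR1b; its difference between the ARID1A forms (-0.39 ± 0.14, adjusted p = 0.0458) was small beside the distance of both from the knockout, and it passed the test in none of the 4 fits with 1 library left out. TNC, a matrix protein gene, likewise had 1.04 and 0.673 CPM in the knockout, 11.7 and 8.59 in WT and 16.6 and 16.7 in ΔIDR1b.

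**Figure D2:**
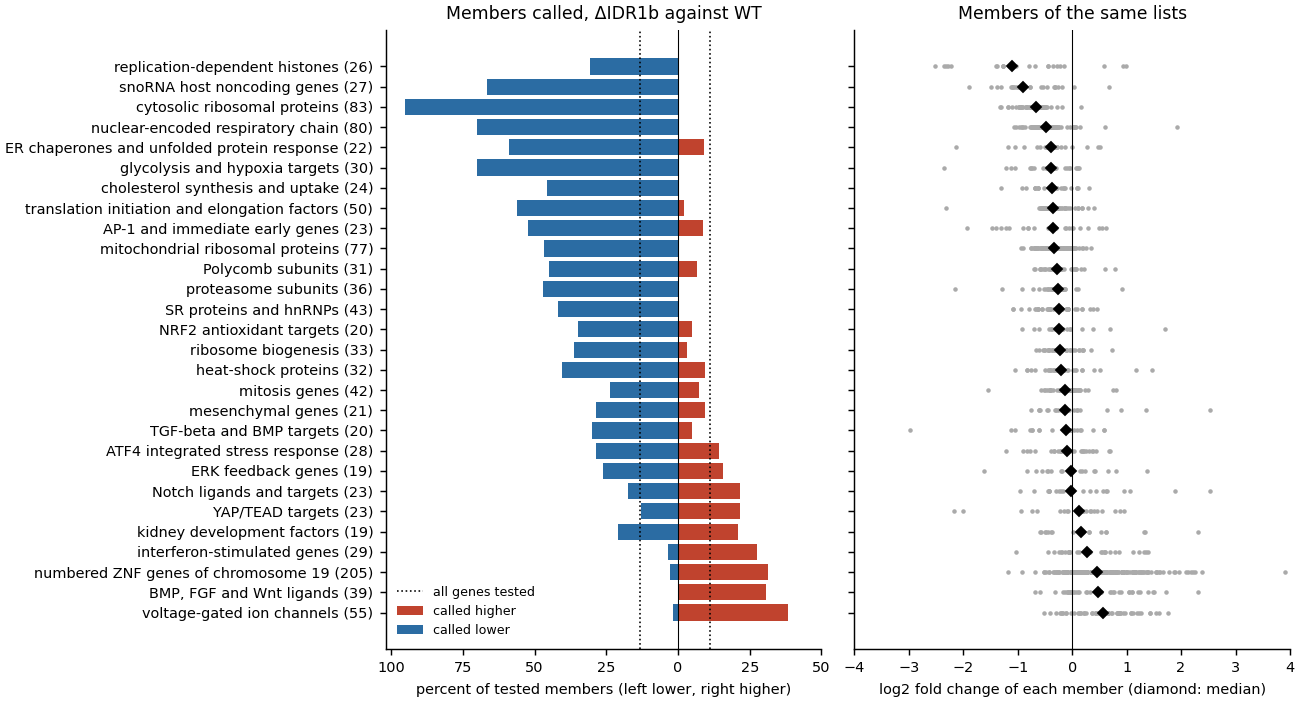
Gene lists with at least 19 tested members of which over 30% were called (a choice made after the values were seen), ordered by median; the left panel gives the percent of members called lower (blue, to the left) and higher (red, to the right), with dotted lines at 13.4% and 11.1% for all genes, and the right panel each member's log2 fold change with the median as a diamond. Ribosomal protein genes have the longest bar to the left (79 of 83) and ion channels the longest to the right (21 of 55).

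The calls differed with the length and build of the genes. In the shortest of 5 equal groups of the genes tested (exon length up to 1628 bases), 13.1% were lower and 2.77% higher in ΔIDR1b, with a median of -0.24. In the longest group (from 7911 bases), 10.3% were lower and 17.4% higher, with a median of 0.11. These groups also differed in level, with a median of 0.911 CPM in the shortest and 39.7 in the longest. By GC content, the lowest of 5 equal groups had 18.3% lower and 7.62% higher, and the highest 11.4% and 14.3%. A fit that removed the trends with GC content and length called 6280 genes, 2557 of them higher; the ribosomal protein genes kept a median of -0.64 and the ion channels 0.44 in it, while the matrix list went to -0.0034. The separate parts of length, level and list were not tested.

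Genes of 1 exon block stood out on the rising side at moderate expression. Of 173 protein-coding genes of 2 to 40 CPM with 1 block, 52 (30.1%) rose and 17 (9.83%) fell, with a median of 0.31. Of 1583 with 17 or more blocks, 254 (16%) rose and 54 (3.41%) fell. Without the upper limit of 40 CPM, the genes of 1 block were divided. Of 246 such genes 66 (26.8%) rose and 53 (21.5%) fell, with a median of 0.11. Over all 12314 protein-coding genes of at least 2 CPM, 14.3% rose and 17.2% fell. In the 12 largest rises 4 genes have 1 block (ANKRD63, HPS6, MOCS3 and FRAT1), and so do 4 of the 12 largest falls (SNORA66, H2BC21, HSPA5 and MALAT1), against 2.54% of the 10890 genes with a symbol and at least 5 CPM. Unspliced genes cannot be told apart from DNA by their reads, so a set of genes mostly silent outside the nose was counted as a rough gauge. Over 404 olfactory receptor genes the libraries held 36 and 54 counts in WT, 55 and 65 in the knockout, and 124 and 121 in ΔIDR1b. These lay in few of the genes: 16 and 20 had a count in WT, 24 and 24 in the knockout, and 30 and 35 in ΔIDR1b. Per kb of exon this was 0.00362 ± 0.00103 CPM (SD, n = 2) in WT and 0.00956 ± 0.000317 in ΔIDR1b, a difference of 0.00594. Among the 12 largest rises the smallest change was 1.27 CPM per kb of exon. Whether such background spreads evenly over genes was not tested, so these values are only given side by side. The part of the background that this gauge measures in the rises of genes with 1 block was not tested.

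**Figure D3:**
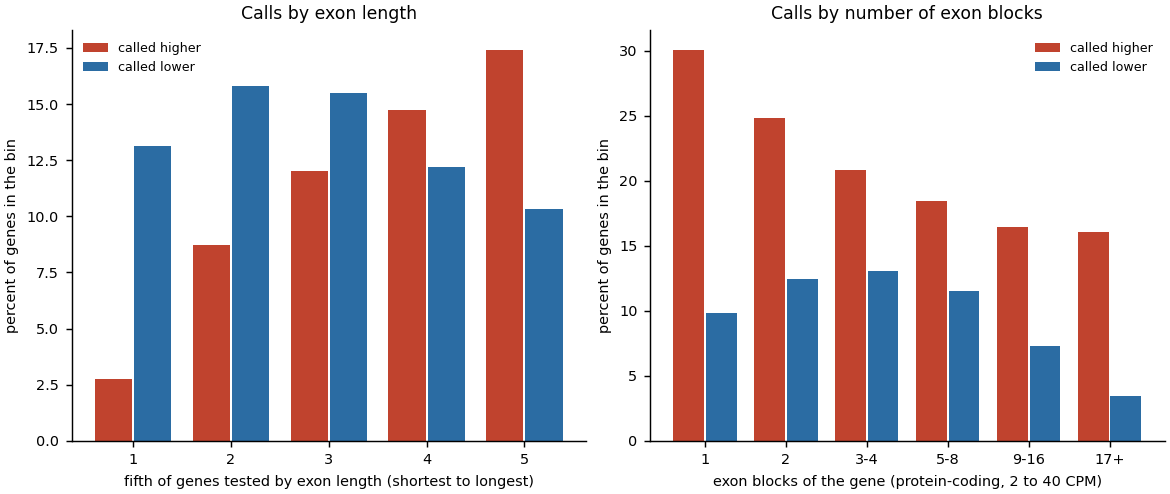
Percent of genes called higher (red) and lower (blue) in ΔIDR1b against WT, by 5 equal groups of exon length over all genes tested (left) and by the number of exon blocks among protein-coding genes of 2 to 40 CPM (right). The share called higher goes up with length from 2.77% to 17.4%, and down with the number of blocks from 30.1% to 16%. The median level goes up with length too, from 0.911 to 39.7 CPM.

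No chromosome moved as a whole. Chromosome medians lay between -0.04 and 0.09, and of 279 windows of 10 Mb with at least 20 tested genes, 262 had a median within 0.2 of 0. The window with the most positive median that held over 100 genes was on chromosome 19 from 50 to 60 Mb (GRCh38), where 54 of 245 genes rose and 21 fell (0.39); many of the zinc-finger genes lie there.

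The promoters of leading genes are shown because the comparison is of a chromatin remodeller's subunit. They are RefSeq windows (GRCh38.p14, the transcript's strand) from 250 bases before to 50 after the start, for 5 of the leading genes. Capitals mark matches, on both strands, to any of 8 short motifs. The TATA box was searched as TATAAA and the NF-Y motif as CCAAT. For the AP-1 site the letters were TGANTCA. The cAMP response element was taken as TGACGTCA. A GC box, bound by SP factors, is GGGCGG here, while ETS factors were given CCGGAAG. The motif of TEAD factors was searched as GGAATG. For NRF1 the search used GCGCATGC.
ADM2, chr22:50481293-50481592, plus strand: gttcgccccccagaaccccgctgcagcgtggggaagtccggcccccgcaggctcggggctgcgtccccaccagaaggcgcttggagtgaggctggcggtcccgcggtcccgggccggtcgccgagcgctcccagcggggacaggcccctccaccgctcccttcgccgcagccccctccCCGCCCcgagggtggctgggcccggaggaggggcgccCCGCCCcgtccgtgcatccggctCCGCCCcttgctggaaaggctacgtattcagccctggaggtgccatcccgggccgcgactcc
PPP1R10, chr6:30617194-30617493, minus strand: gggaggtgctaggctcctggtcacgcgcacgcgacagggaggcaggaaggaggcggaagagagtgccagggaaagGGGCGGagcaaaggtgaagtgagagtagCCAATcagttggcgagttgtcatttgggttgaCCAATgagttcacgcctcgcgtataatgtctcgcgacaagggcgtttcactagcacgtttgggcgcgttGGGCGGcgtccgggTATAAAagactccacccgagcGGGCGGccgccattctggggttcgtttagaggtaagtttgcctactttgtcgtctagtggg
ANKRD37, chr4:185396591-185396890, plus strand: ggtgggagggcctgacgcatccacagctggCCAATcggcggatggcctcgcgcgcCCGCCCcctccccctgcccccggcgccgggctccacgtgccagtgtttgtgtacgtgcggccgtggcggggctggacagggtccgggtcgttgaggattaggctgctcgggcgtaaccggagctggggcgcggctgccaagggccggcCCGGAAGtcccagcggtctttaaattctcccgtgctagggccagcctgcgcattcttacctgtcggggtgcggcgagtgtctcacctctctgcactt
EIF4A1, chr17:7572575-7572874, plus strand: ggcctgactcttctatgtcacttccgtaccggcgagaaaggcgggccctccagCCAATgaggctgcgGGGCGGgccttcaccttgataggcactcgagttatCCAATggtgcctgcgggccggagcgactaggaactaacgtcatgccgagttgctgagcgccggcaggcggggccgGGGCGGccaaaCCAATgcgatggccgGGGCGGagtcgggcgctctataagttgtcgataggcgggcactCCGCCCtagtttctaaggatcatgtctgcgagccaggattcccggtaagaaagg
H2BC21, chr1:149886633-149886932, minus strand: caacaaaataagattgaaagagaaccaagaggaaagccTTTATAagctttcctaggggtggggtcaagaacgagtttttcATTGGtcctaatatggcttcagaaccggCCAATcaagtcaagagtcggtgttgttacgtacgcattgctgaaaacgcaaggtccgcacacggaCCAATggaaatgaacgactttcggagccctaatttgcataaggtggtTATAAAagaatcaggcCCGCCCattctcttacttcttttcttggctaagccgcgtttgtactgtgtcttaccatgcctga
The ADM2 window holds GC boxes only (3) in 76.7% GC. PPP1R10, EIF4A1 and H2BC21 hold 2 to 3 CCAAT motifs each, and PPP1R10 and H2BC21 a TATA box, at 58.7%, 62.7% and 45.0% GC.

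Over 12582 tested genes with a promoter entry, the share with each motif was counted, with no test. CCAAT was found in 41% of 1862 falls, 34.5% of 1623 rises and 36.2% of all promoters of tested genes, and CCGGAAG in 22.6%, 18.2% and 17.3%. TATAAA was in 7.25% of falls, 5.67% of rises and 6.20% of all tested. GGGCGG was in 71.4% of falls, 69.0% of rises and 68.5% of all tested, TGACGTCA in 4.03%, 3.51% and 3.12%, TGANTCA in 3.65%, 4.87% and 4.57%, GGAATG in 10.8%, 11.6% and 10.9%, and GCGCATGC in 6.28%, 6.41% and 5.13%. Among the 161 falls and 482 rises with a log2 fold change of at least 1 the shares were 15.5% and 7.26% for TATAAA, 44.1% and 35.9% for CCAAT, 15.5% and 17% for CCGGAAG, 55.9% and 62.0% for GGGCGG, 4.35% and 2.49% for TGACGTCA, 4.97% and 5.81% for TGANTCA, 11.2% and 11.8% for GGAATG, and 4.35% and 4.15% for GCGCATGC. Over all 27195 promoters of the table the shares were 35.7% for CCAAT, 10.7% for CCGGAAG, 12.0% for TATAAA, 44.7% for GGGCGG, 1.98% for TGACGTCA, 7.73% for TGANTCA, 14.0% for GGAATG and 3.28% for GCGCATGC.

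The same contrast was available in cells with EWS-FLI1, in 4 other libraries that share none with the comparison above but may come from the same cells. There ΔIDR1b differed from WT in 3785 genes, 18.6% of those tested (1727 higher, 2058 lower). Of the 4995 genes called without EWS-FLI1, 4929 (98.7%) had the same sign with it, where 79.7% of all tested genes did. Called in both with the same sign were 2772, or 55.5% of the calls without and 73.2% of the calls with EWS-FLI1, and 0 were called with opposite signs. The median log2 fold change with EWS-FLI1 was 0.57 for the genes that rose without it (0.77 there) and -0.41 for those that fell (-0.56 there). All 24 leading genes kept their direction and were called, HSPA5 with 2571 and 2153 CPM in WT and 614 and 644 in ΔIDR1b (-1.91 ± 0.10, adjusted p = 1.13e-15) and PPP1R10 with 6.62 and 7.81 and 39.2 and 41.3 (2.48 ± 0.17, adjusted p = 3.99e-12). A test of the difference between the 2 settings called 0 genes (0% of 20377) in edgeR with the filter on low counts and no repeat block. In it 741 had an unadjusted p under 0.05. DESeq2 also called 0. Without the filter, edgeR called 6 genes with no repeat block, among them RPL38, RPS29, RPS28 and RPL37A.

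Ribosomal protein genes fell in both settings. With EWS-FLI1, 72 of 83 fell with a median of -0.44, against 79 and -0.66 without. With the repeat numbers as a block within each vector, which the values pair, the test of the difference called 10 genes. Among them were RPL38 (-1.11 without and -0.35 with EWS-FLI1), RPS29 (-1.18 and -0.50), RPS28, RPL37A, RPS27 and RPS21, all with smaller falls with EWS-FLI1. The last 4 were named after their values were seen. The respiratory chain genes fell in 25 of 80 (median -0.27) with EWS-FLI1. The snoRNA hosts fell in 14 of 27 (-0.59), the glycolysis and hypoxia list in 20 of 30 (-0.37) and immediate early genes in 14 of 23 (-0.45). On the rising side 50 of 205 zinc-finger genes (median 0.42), 11 of 55 ion channels (0.39) and 11 of 39 ligands (0.32) rose. The olfactory receptor genes held 68 and 76 counts in WT and 106 and 101 in ΔIDR1b with EWS-FLI1.

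**Figure D4:**
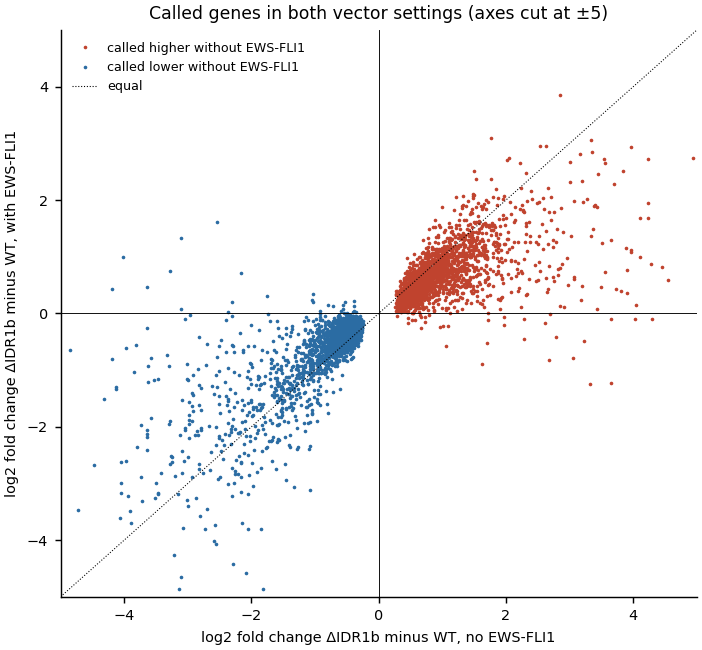
Log2 fold change of ΔIDR1b minus WT for the 4995 genes called without EWS-FLI1 (x axis) against the same contrast in the EWS-FLI1 libraries (y axis), in red for called rises and blue for called falls; the dotted line marks equal values. Of the points, 4929 lie in the quadrants of equal sign, counting those beyond the drawn range.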

How the data were processed

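PolyA RNA of 12 libraries (6 groups of 2) was sequenced 48 h after transfection, per the labels' protocols. The deposited values are counts of read pairs per gene name, made by the authors with featureCounts 2.0.1 on GENCODE 41 exons (GRCh38.p13), without strand, and without fragments that overlapped several genes or mapped to several places, per the file headers. STAR, SAMtools and edgeR are named in the submitters' processing notes.

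From these counts, 20377 genes passing filterByExpr (minimum count 10, total 15) were tested with edgeR 4.0.16 (R 4.3.3): TMM scaling, quasi-likelihood F-test over all 12 libraries (6 residual degrees of freedom, 2-sided), calls at a Benjamini-Hochberg adjusted p under 0.05. DESeq2 1.42.0, other scalings, no filter, fewer libraries, GC and length correction, a repeat block and leaving out each library were alternatives; dropping genes with shared exon bases was chosen after seeing the data. On simulated data of 15390 genes for this comparison, 41.8% of 67 1.5-fold, 80.6% of 67 2-fold and 100% of 66 4-fold changes were recovered. There 6 unchanged genes were called. The simulation left out genes of low counts, gave every gene the same spread and changed a far smaller share of genes than was called here. Its rates may therefore not hold for these data. Totals were 12893088 to 14445379 counts in the 4 libraries. The labels number the repeats without saying what they share; same-numbered libraries deviated together within a vector (r = 0.104, 0.148 and 0.194 without EWS-FLI1), so this pairing comes from the data. Gene lists and members were chosen with earlier results of these data known. Named genes were ARID1A, ARID1B, ARID2, FLI1 and EWSR1, the 12 largest changes a direction (at least 5 CPM, a symbol, no overlap between groups), the 4 largest in CPM, and up to 4 called members a direction of each list (at least 1 CPM); members of lists of at most 12 could all be named. Some items are not reported here.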

Additional observations from a re-analysis of the deposited data

How the results depend on the processing

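Of 269 named genes called, all kept their sign and 144 their call in every alternative run. With library totals alone, 3879 genes were higher and 1488 lower, 98.2% kept their sign with EWS-FLI1, and these list medians of at least 0.1 in size turned positive: SWI/SNF 0.029, cadherins 0.068, mesenchymal genes 0.036, TGF-beta and BMP targets 0.055, mitosis 0.036, and annexins and S100 proteins 0.033. So did 8 smaller medians: ATF4 targets 0.076, Notch 0.146, ERK feedback 0.143, S-phase 0.124, p53 targets 0.102, epithelial genes 0.088, cyclins and CDK inhibitors 0.075 and tRNA synthetases 0.077. That scaling moves the median of all genes by 0.18. With GC and length trends removed the same-sign share was 97.6%, and the medians of the matrix list (-0.0034) and the neuronal and synaptic list (-0.0088) turned negative, as did the smaller ones of the other chromatin remodellers (-0.036) and imprinted genes (-0.039), while the Notch list turned positive (0.022). Adding the replicate block to that fit gave -0.0037, -0.011, 97.5% and 12 genes whose difference changed with EWS-FLI1. The replicate block alone gave 10 such genes and a same-sign share of 97.9%, and left the counts over all genes within 1.5 times. It moved rises of collagens from 4 to 7, of TGF-beta and BMP targets from 1 to 3, of p53 targets from 2 to 4 and of the mitochondrial genome from 1 to 3 (falls from 0 to 2), and falls of other remodellers from 2 to 5. Further lists moved by over 1.5 times on small counts: neuronal and synaptic rises from 0 to 6, axon guidance from 7 to 11 rises and 3 to 5 falls, and rises of cyclins from 1 to 3, of translation factors from 1 to 2 and of annexins from 0 to 1, and cadherin falls from 0 to 1. No filter gave 6 genes whose difference changed with EWS-FLI1. Genes without shared exon bases, fewer by construction, gave 2526 calls (1174 higher, 1352 lower). Requiring a log2 fold change of 1 gave 1393 (805 and 588), 97.1% of the same sign. Leaving out 1 library gave 2754 to 3436 calls, 1163 to 1463 higher and 1519 to 1973 lower, and 98.8% to 99.2% of the same sign; the cadherin median ran from -0.17 to 0.019 (positive without WT 1) and the keratin median from -0.13 (without ΔIDR1b 1) to 0.66. Apart from the shifts that scaling and fewer genes or samples make, the cause was not tested. In the lowest of 5 equal groups by level (up to 1.03 CPM) 2.92% were called higher and 3.53% lower, and 2 libraries a group limit all calls.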
